A study of Mus musculus with 7 samples.

Results

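The first 2 h of the response to lipopolysaccharide (LPS) were followed in bone-marrow-derived macrophages (BMDMs), macrophages grown from mouse marrow in the growth factor M-CSF. One library of unstimulated wild-type BMDMs (0 h) was compared with 1 library of wild-type BMDMs given LPS at 100 ng per mL for 2 h. Of 22021 protein-coding genes in the table, the 9662 with a mean value of at least 50 over both libraries were compared on log2(value + 1). Among them 712 genes were at least 4-fold higher and 439 at least 4-fold lower at 2 h. The series held 7 samples in all. Its other samples were a 4 h LPS library of the same culture type and 4 samples of BMDMs kept for 48 h with adeno-associated virus (AAV) that carried GFP (AAV-GFP) or Shisa3 (AAV-Shisa3), 2 of each. Both vectors used the CAG promoter, which is active in most cell types, and the labels of the AAV cells name no LPS. Nothing in the labels says whether the LPS libraries came from the same mouse or were sequenced together.

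LPS, a glycolipid from the surface of Gram-negative bacteria, is sensed by Toll-like receptor 4 on macrophages. The receptor signals through MyD88 to NF-κB and the MAP kinases, which switch on genes for cytokines, chemokines and the inhibitors that later end the signal, and through TRIF to IRF3, which starts the production of type I interferon and with it the interferon-stimulated genes. In the same hours many mRNAs of the resting state decline.

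Each deposited value was the number of reads over a constant of its library, so the reads could be recovered. The 0 h library held 15588502, the 2 h library 7263258 and the 4 h library 32659392. The 2 h library was the shallowest, and 1 read there was worth 2.18 units against 0.643 at 0 h and 0.543 at 4 h. Folds are ratios of values, and their 95% intervals are exact binomial intervals that cover counting error only. As each time point is 1 library, no replicate check or test was possible, so every difference below is between these libraries. The scaling and the filter on low values both set the balance of higher and lower genes. Of the genes past 4-fold, 50.2% were higher with no filter and 78.4% with a mean of at least 200. On the authors' scale the median log2 change of all compared genes was -0.01 and 61.9% of the changed genes were higher. With equal library totals the median moved to -0.67, 476 genes were higher and 985 lower, and 32.6% of the changed genes were higher. TMM factors, which edgeR computes from genes of moderate change, gave 686 higher and 465 lower genes. Log2 changes are therefore best read relative to the median of all genes.

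The genes higher at 2 h were led by inflammatory enzymes, cytokines and chemokines, and the largest falls were those of Lpar6, Cnr2 and Arrdc3. The background for the list counts on the authors' scale is that 7.37% of the compared genes were at least 4-fold higher and 4.54% at least 4-fold lower. For list counts with equal library totals it is 4.93% higher and 10.2% lower. Rises reached further than falls, with 125 genes past a log2 change of 5 upward and 13 downward. The higher genes took 3.38% of all reads at 0 h and 24.8% at 2 h, while the lower genes went from 2.95% to 0.305%. Their counting precision differed as well. For 624 of the 712 higher genes the interval of the fold lay wholly past 4-fold, against 203 of the 439 lower genes, of which 135 had 10 reads or fewer at 2 h. At the boundary, Skil, an inhibitor of TGF-β signalling, was just inside at 4.01-fold higher (95% interval 3.73 to 4.30), and Cd44, the hyaluronan receptor, was just outside at 3.98-fold higher (95% interval 3.78 to 4.19). On the lower side Klhl24 was just inside with a log2 change of -2.001 and Cep44 just outside with -1.9997, and their plain ratios were 4.01-fold lower (95% interval 3.61 to 4.46) and 4.12-fold lower (95% interval 2.24 to 8.43). The pseudocount of 1 put Cep44 outside.

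**Figure D1:**
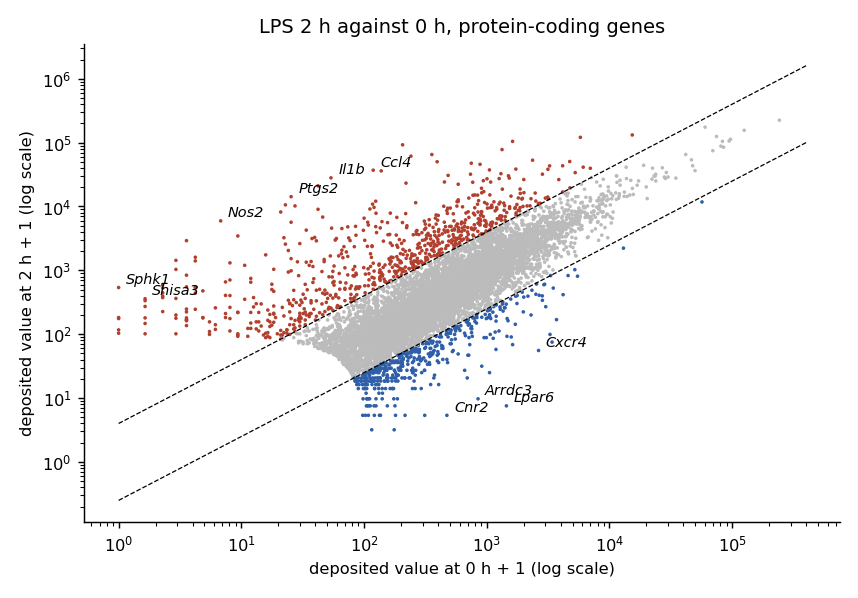
Deposited value plus 1 at 0 h (x axis) and at 2 h of LPS (y axis), both on log scales, for the 9662 compared protein-coding genes. Red points are the 712 genes at least 4-fold higher, blue points the 439 genes at least 4-fold lower, and dashed lines mark 4-fold, with the points of low blue genes lying on steps of whole reads.

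Enzymes of inflammation held the largest rises. Of 40 compared genes on a list of inflammatory enzymes and metabolism, 28 were at least 4-fold higher and none lower, with a median log2 change of 3.43. Nos2, the inducible nitric oxide synthase, lies on chromosome 11 from 78920787 to 78960254 on the plus strand, 29 exon blocks (GRCm38), and its value was 5.79 at 0 h, 5948 at 2 h and 51437 at 4 h. It was 1027-fold higher (95% interval 540.4 to 2249) at 2 h and went on upward to the 4 h library. Ptgs2, which makes prostaglandin precursors as cyclooxygenase 2, lies on chromosome 1 from 150100031 to 150108227 on the plus strand, 11 exon blocks, with 24.4 at 0 h, 14233 at 2 h and 41858 at 4 h, and was 582-fold higher (95% interval 424 to 824). Acod1, the enzyme that makes itaconate, measured 205 at 0 h, 92321 at 2 h and 183998 at 4 h, 449.9-fold higher (95% interval 403 to 504). All 3 were low at 0 h beside their later level. Lipg, endothelial lipase, had only 4 reads at 0 h and measured 2.57 at 0 h, 2915 at 2 h and 14179 at 4 h. It was 1133-fold higher (95% interval 441 to 4164), a wide range. Saa3, an acute-phase serum amyloid, measured 41.2 at 0 h, 21044 at 2 h and 103417 at 4 h and was 511-fold higher (95% interval 399.9 to 664). The pattern of a further climb at 4 h was common in the list, where 23 of the 28 genes were higher at 4 h than at 2 h.

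Sphk1, the kinase that makes sphingosine 1-phosphate, behaved otherwise. It had no read at 0 h, 246 reads at 2 h, and its value was 0 at 0 h, 537 at 2 h and 58.7 at 4 h. Set against 3 reads at 0 h it was 278-fold higher, and the exact 95% interval of its fold starts at 225. Its level at 4 h was far below that at 2 h. Rnd1, a small GTPase, had the same shape with 26.4 at 0 h, 10199.9 at 2 h and 1021 at 4 h, 387-fold higher (95% interval 285 to 539.7) at 2 h. Edn1, the precursor of endothelin 1, had 3 reads at 0 h and measured 1.93 at 0 h, 1432 at 2 h and 5353 at 4 h, 742-fold higher (95% interval 253 to 3609).

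Chemokines, the secreted proteins that draw leukocytes to a site, were the list with the largest median change. Of 32 listed chemokines 20 were compared. Of these 16 were at least 4-fold higher, none was lower, and the median log2 change was 5.89. Ccl4, which attracts monocytes and T cells, measured 118 at 0 h, 37011 at 2 h and 33508 at 4 h and was 314-fold higher (95% interval 272 to 366). Cxcl10, an interferon-induced attractant of T cells, measured 356 at 0 h, 65071 at 2 h and 65591 at 4 h, 183-fold higher (95% interval 168 to 199). Both differed little between 2 h and 4 h. The neutrophil attractants differed from Ccl5 in their 4 h level. Cxcl1 measured 2.57 at 0 h, 839 at 2 h and 246 at 4 h, 326-fold higher (95% interval 126 to 1202), and Cxcl3 had 1 read at 0 h and 0.643 at 0 h, 271 at 2 h and 99.99 at 4 h, a ratio with an interval of 74.2 to 16759. Ccl5, which attracts T cells, measured 41.2 at 0 h, 9027 at 2 h and 33285 at 4 h, 219-fold higher (95% interval 171 to 285). Thus Cxcl1 and Cxcl3 were lower at 4 h than at 2 h and Ccl5 was higher.

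Of 58 listed cytokines and growth factors 29 were compared, and 18 of these were at least 4-fold higher. Il1b, the secreted interleukin 1β, measured 52.7 at 0 h, 28064 at 2 h and 25126 at 4 h, 532-fold higher (95% interval 428 to 669). Il1a, its cell-associated relative, measured 3.22 at 0 h, 1603 at 2 h and 1485 at 4 h, 498-fold higher (95% interval 213 to 1539). Both stood slightly above their 4 h value at 2 h. Il12b, the shared p40 chain of interleukins 12 and 23, measured 8.36 at 0 h, 3452 at 2 h and 1800.3 at 4 h, 413-fold higher (95% interval 241 to 777). Il27, a subunit of interleukin 27, measured 19.9 at 0 h, 8193 at 2 h and 7064 at 4 h, 411-fold higher (95% interval 289 to 606). Tnf, tumour necrosis factor, measured 137 at 0 h, 36109 at 2 h and 19042 at 4 h and was 264-fold higher (95% interval 230.2 to 303). Of the 18 genes, 11 stood higher at 2 h than at 4 h. One cytokine was lower, Il16, a chemoattractant for CD4+ cells, with 1192 at 0 h, 189.98 at 2 h and 222 at 4 h.

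**Figure D2:**
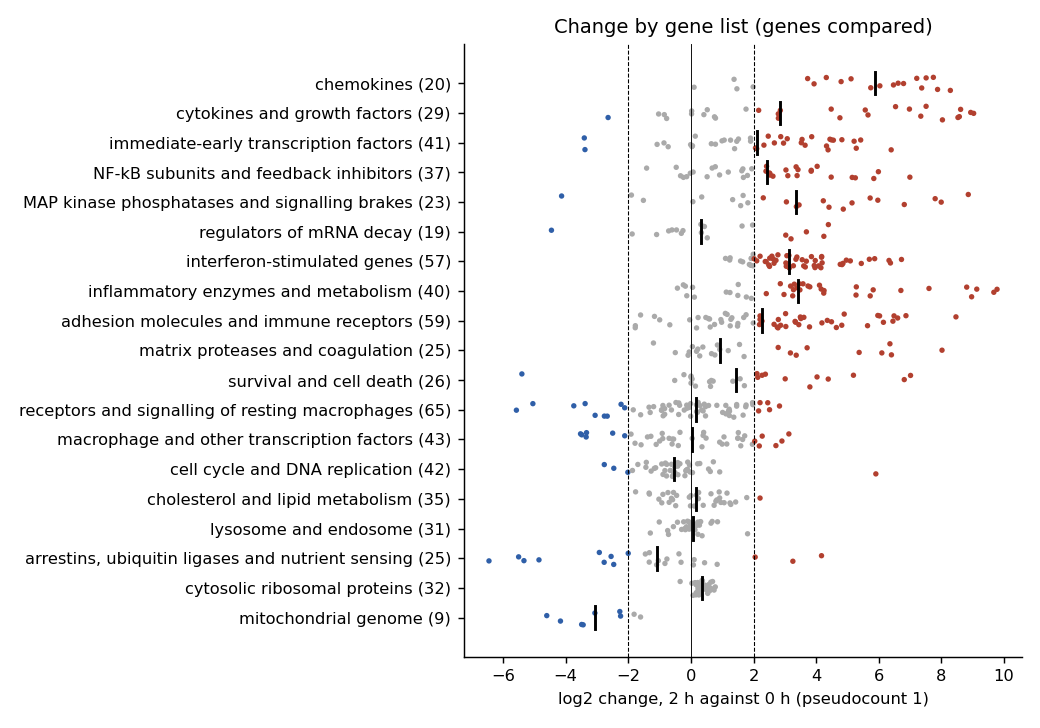
Log2 change from 0 h to 2 h (x axis, pseudocount 1) of every compared gene on each functional list, with the number compared in brackets and a black bar at the list's median. Red points are at least 4-fold higher and blue points at least 4-fold lower, and chemokines have the highest median (5.89) and the mitochondrial genome the lowest (-3.06).

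Most of the higher immediate-early transcription factors and feedback inhibitors stood higher at 2 h than at 4 h. Of 41 compared immediate-early transcription factors, 22 were at least 4-fold higher and 2 lower, and 17 of the 22 stood higher at 2 h than at 4 h. Csrnp1, a nuclear protein induced by many growth signals, measured 53.4 at 0 h, 4577 at 2 h and 1518 at 4 h, 85.7-fold higher (95% interval 68.8 to 108). Maff, a small Maf factor, measured 16.7 at 0 h, 500.1 at 2 h and 102 at 4 h, 29.9-fold higher (95% interval 19.9 to 46.8). Nr4a3, an orphan nuclear receptor, measured 3.86 at 0 h, 179 at 2 h and 98.9 at 4 h, 46.4-fold higher (95% interval 20.4 to 130.1), and like the others was below its 2 h level at 4 h. Ets2 was an exception, with 124 at 0 h, 4837 at 2 h and 6279 at 4 h. The list's lower members were Klf10, a TGF-β-induced repressor, with 726 at 0 h, 67.7 at 2 h and 54.9 at 4 h, and Per1 of the circadian clock, with 214 at 0 h, 19.7 at 2 h and 77.2 at 4 h.

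Among NF-κB subunits and their inhibitors 20 of 37 were at least 4-fold higher and none lower, and 16 of the 20 were higher at 2 h than at 4 h. With equal library totals these counts were 14 higher and 1 lower. Tnfaip3, the A20 deubiquitinase that ends NF-κB signalling, measured 393 at 0 h, 50159 at 2 h and 34388 at 4 h, 128-fold higher (95% interval 118 to 139). Nfkbia, the inhibitor that holds NF-κB in the cytoplasm, lies on chromosome 12 from 55489410 to 55492647 on the minus strand, 6 exon blocks, and measured 1050.5 at 0 h, 37345 at 2 h and 25877 at 4 h, 35.6-fold higher (95% interval 33.8 to 37.4). Nfkbiz, a nuclear relative of Nfkbia, measured 584 at 0 h, 22282 at 2 h and 11707 at 4 h, 38.1-fold higher (95% interval 35.6 to 40.9). Each of these 3 genes was lower at 4 h than at 2 h. Tnip3, which binds A20, was the reverse, with 483 at 0 h, 30696 at 2 h and 48642 at 4 h.

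Phosphatases and brakes of signalling followed the same course. Of 23 compared, 14 were at least 4-fold higher and 1 lower, and 11 of the 14 stood higher at 2 h than at 4 h. There were 13 higher and 3 lower with equal library totals. Dusp2, a nuclear MAP kinase phosphatase, measured 21.9 at 0 h, 10602 at 2 h and 5914 at 4 h, 485-fold higher (95% interval 346 to 701). Socs3 and Socs1, which block cytokine receptor signalling, measured 239.9 at 0 h, 61361 at 2 h and 39510.3 at 4 h, and 24.4 at 0 h, 5667 at 2 h and 2157 at 4 h. Cish, a relative of both, measured 9.65 at 0 h, 1197 at 2 h and 64.7 at 4 h, 124-fold higher (95% interval 74.5 to 223), and had lost most of that level at 4 h. Dusp1 kept climbing, with 124 at 0 h, 7837 at 2 h and 10562 at 4 h. The lower gene on the authors' scale was Rgs2, which shortens G protein signals, with 1582 at 0 h, 89.5 at 2 h and 101 at 4 h. Of 19 regulators of mRNA decay 5 were higher and 1 lower, with a median log2 change of 0.33, or 5 and 2 with a median of -0.33 with equal library totals. Zfp36, which targets cytokine mRNAs for decay, measured 713 at 0 h, 13539 at 2 h and 12971 at 4 h, 18.995-fold higher (95% interval 17.8 to 20.3), whereas its relative Zfp36l2 measured 3701 at 0 h, 168 at 2 h and 107 at 4 h, 22.009-fold lower (95% interval 17.6 to 27.9). These relatives therefore moved in opposite directions, under equal library totals too.

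Promoter letters of 4 genes show what was searched. The bases before the RefSeq start of Nfkbia, Cxcl1, Ifit1 and Shisa3 (GRCm38.p6) are shown as those of an NF-κB inhibitor, a chemokine, an interferon-stimulated gene and the gene of the study. Capitals mark a κB match (GGGNNTTTC on either strand) or an interferon response element match (GAAANNGAA on either strand), and neighbouring matches may share letters.
Nfkbia (chr12:55492648-55492897, minus strand): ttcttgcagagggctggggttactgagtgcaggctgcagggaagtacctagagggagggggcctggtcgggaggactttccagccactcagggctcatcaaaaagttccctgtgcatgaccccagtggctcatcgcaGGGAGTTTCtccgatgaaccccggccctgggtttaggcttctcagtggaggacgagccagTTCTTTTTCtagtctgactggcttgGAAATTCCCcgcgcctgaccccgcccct
Cxcl1 (chr5:90890995-90891244, plus strand): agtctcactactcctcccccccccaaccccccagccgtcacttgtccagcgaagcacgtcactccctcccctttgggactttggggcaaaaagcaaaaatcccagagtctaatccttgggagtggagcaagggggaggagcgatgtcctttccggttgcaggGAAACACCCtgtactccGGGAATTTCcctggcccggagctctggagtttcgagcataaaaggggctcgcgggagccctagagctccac
Ifit1 (chr19:34640639-34640888, plus strand): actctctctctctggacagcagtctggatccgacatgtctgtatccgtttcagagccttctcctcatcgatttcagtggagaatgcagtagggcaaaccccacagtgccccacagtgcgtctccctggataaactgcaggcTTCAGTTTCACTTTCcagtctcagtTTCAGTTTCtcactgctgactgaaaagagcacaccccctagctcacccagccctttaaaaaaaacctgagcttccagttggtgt
Shisa3 (chr5:67607633-67607882, plus strand): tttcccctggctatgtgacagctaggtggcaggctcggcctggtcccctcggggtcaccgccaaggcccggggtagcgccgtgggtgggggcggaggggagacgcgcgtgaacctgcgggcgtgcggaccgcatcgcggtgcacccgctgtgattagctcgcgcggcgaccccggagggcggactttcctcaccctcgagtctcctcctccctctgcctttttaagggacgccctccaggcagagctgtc
In these 250 bases Nfkbia held 2 κB matches and 1 interferon response element match, Cxcl1 held 2 κB matches, Ifit1 held 3 interferon response element matches, of which the first and second overlap, and Shisa3 held neither set of letters. Over RefSeq windows of 300 bases that reach past the start, κB letters stood in 4.36% of all 32851 promoters, in 4.27% of those of compared genes, in 8.38% of those of the higher genes and in 5.62% of those of the lower genes. They stood in 6 of 16 chemokine promoters (37.5%) and in 14 of 44 promoters of the NF-κB list (31.8%), but in 1 of 46 promoters of immediate-early factors (2.17%) and 3 of 51 of interferon-stimulated genes (5.88%). The interferon response element letters stood in 8.56% of all promoters, in 13.7% of those of the higher genes and in 30 of 51 promoters of interferon-stimulated genes (58.8%). Promoters of the higher genes held a median of 15 CpG against 21 over the compared genes. A match describes the letters and shows no binding, and the lack of one says only that these exact letters are not in this window.

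Interferon-stimulated genes were higher nearly as a group at 2 h and climbed on. Of 57 compared, 46 were at least 4-fold higher and none lower, the median log2 change was 3.13, and 44 of the 46 were higher again at 4 h. With equal library totals 35 were past 4-fold. Rsad2, the antiviral enzyme viperin, measured 1331 at 0 h, 77776 at 2 h and 169038 at 4 h, 58.4-fold higher (95% interval 55.9 to 61.1). Mx1, a GTPase that blocks influenza virus, measured 881 at 0 h, 45752 at 2 h and 55646 at 4 h, 51.954-fold higher (95% interval 49.2 to 54.9). Ifit1, which binds foreign RNA caps, measured 767 at 0 h, 23966 at 2 h and 46878 at 4 h, 31.2-fold higher (95% interval 29.4 to 33.2). These 3 already held sizeable values at 0 h, unlike Nos2 or Ptgs2. Oasl1 measured 119.6 at 0 h, 9678 at 2 h and 13216 at 4 h, 80.9-fold higher (95% interval 69.8 to 94.2), and Ifi205, of the DNA-sensing p200 family, 38.6 at 0 h, 3278 at 2 h and 18059 at 4 h. Gbp5, a guanylate-binding protein of inflammasome assembly, was among those not higher at 4 h, with 219 at 0 h, 23223 at 2 h and 23053 at 4 h, and shares sequence with other Gbp genes, between which reads may have been split.

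Genes of antigen processing by MHC class I, a list drawn up after the values were seen, joined this course, with 10 of 24 at least 4-fold higher, none lower, and 9 of the 10 higher at 4 h than at 2 h. Tap1, a subunit of the peptide transporter, measured 796 at 0 h, 7383 at 2 h and 13456 at 4 h, 9.27-fold higher (95% interval 8.68 to 9.90). Nlrc5, the transactivator of MHC class I genes, measured 936 at 0 h, 6972 at 2 h and 17141 at 4 h. With equal library totals 5 of the 10 stayed past 4-fold. H2-Q6 and H2-Q7 were also higher, but they are near copies of each other and their split is uncertain.

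Receptors and adhesion molecules of the activated macrophage were higher in 33 of 59 compared genes and lower past 4-fold in none on the authors' scale and in 3 with equal library totals. Cd40, the costimulatory receptor, measured 124 at 0 h, 12095 at 2 h and 16819 at 4 h, 97.9-fold higher (95% interval 84.8 to 114). Adora2a, the adenosine receptor that damps inflammation, had 3 reads at 0 h and measured 1.93 at 0 h, 1033 at 2 h and 1627 at 4 h, 535-fold higher (95% interval 182 to 2605). Sele, E-selectin, had no read at 0 h and measured 0 at 0 h, 116 at 2 h and 78.8 at 4 h. Set against 3 reads at 0 h it was 59.972-fold higher, and the exact 95% interval of its fold starts at 47.1. Slamf1, a phagocyte receptor, had 1 read at 0 h and went on to its higher level by 4 h, with 0.643 at 0 h, 146 at 2 h and 1443 at 4 h.

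Of 25 matrix proteases and coagulation genes 9 were higher, and 8 of these were higher again at 4 h. Mmp13, a collagenase, measured 111 at 0 h, 9139 at 2 h and 23067 at 4 h, 82.6-fold higher (95% interval 70.9 to 96.8). Adamts4, which cuts aggrecan, was the gene lower at 4 h, with 1.29 at 0 h, 592 at 2 h and 179 at 4 h, from 2 reads at 0 h. Of 26 survival and cell death genes 11 were higher and 1 lower, or 7 and 1 with equal library totals. The survival genes Bcl2a1a, Bcl2a1b and Bcl2a1d were 7.01, 5.19 and 6.81 higher on the log2 scale, and being near copies their reads may have been split. The lower gene was Bmf, a pro-apoptotic BH3 protein, with 1052 at 0 h, 24.020 at 2 h and 21.2 at 4 h, 43.8-fold lower (95% interval 24.4 to 87.9).

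Lists drawn up after the values were seen gave further groups. Of 28 listed Notch, Frizzled and Hedgehog genes 11 were compared, and 10 of the 28 had no read at 0 h. Of the 11, 8 were higher, and 6 of these stood higher at 2 h than at 4 h. Dll1, a Notch ligand, had 2 reads at 0 h and measured 1.29 at 0 h, 393 at 2 h and 143 at 4 h, and Fzd1, a Wnt receptor, measured 34.7 at 0 h, 1197 at 2 h and 972 at 4 h, 34.4-fold higher (95% interval 26.017 to 46.5). Of 30 metal-handling genes 7 were higher. Steap4, a metalloreductase, measured 3.22 at 0 h, 1404 at 2 h and 3116 at 4 h, 437-fold higher (95% interval 186 to 1349), and the zinc-binding metallothionein Mt2 measured 73.975 at 0 h, 3217 at 2 h and 3321 at 4 h, 43.5-fold higher (95% interval 35.9 to 53.037).

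Shisa3, the gene of the study, lies on chromosome 5 from 67607882 to 67623552 on the plus strand, 4 exon blocks, and codes for a membrane protein of the Shisa family, known for holding back Wnt and FGF receptors. It had 1 reads at 0 h and 164 at 2 h, and its value was 0.643 at 0 h, 358 at 2 h and 1725 at 4 h. It was 557-fold higher (95% interval 98.5 to 22122) at 2 h, and the level at 4 h was above that at 2 h. Per 1 kb of merged exons its 2 h value was 75.3, against 6941 for Tnfaip3 and 35197 for Acod1. Of the 712 higher genes, 439 were on none of the lists. The largest of these, beside Sphk1, were Col27a1, a fibrillar collagen chain, with 1.29 at 0 h, 531 at 2 h and 311 at 4 h, and Shisa3. Tmem200b had 1 read at 0 h and measured 0.643 at 0 h, 334 at 2 h and 60.3 at 4 h. Sdc4, a heparan sulphate proteoglycan, was the one of them with the highest 2 h value, 1622 at 0 h, 104585 at 2 h and 62694 at 4 h, 64.5-fold higher (95% interval 61.9 to 67.1). Marcksl1, an actin-regulating protein, measured 747 at 0 h, 47586 at 2 h and 33560.5 at 4 h, 63.7-fold higher (95% interval 60.1 to 67.7).

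The largest falls among single genes were in 2 G protein-coupled receptors, Lpar6 and Cnr2. Of 62 compared receptors, on a list drawn up after the values were seen, 14 were at least 4-fold lower and 18 at least 4-fold higher, or 17 and 14 with equal library totals, so the class moved both ways. Lpar6, a receptor for lysophosphatidic acid, lies on chromosome 14 from 73237895 to 73243294 on the plus strand, 1 exon blocks, and measured 1445 at 0 h, 6.55 at 2 h and 20.6 at 4 h from 2246 reads at 0 h and 3 at 2 h, 221-fold lower (95% interval 75.4 to 1070.2). Cnr2, the cannabinoid receptor of immune cells, measured 472 at 0 h, 4.37 at 2 h and 11.955 at 4 h from 734 reads at 0 h and 2 at 2 h, 108-fold lower (95% interval 29.8 to 894). With 3 and 2 reads at 2 h the size of these falls is known only within those wide intervals. Cxcr4, the receptor that keeps cells in the marrow, rests on more reads and measured 2641 at 0 h, 54.6 at 2 h and 24.5 at 4 h, 48.4-fold lower (95% interval 32.7 to 74.9). Ccr2, the monocyte chemokine receptor, measured 5486 at 0 h, 808 at 2 h and 1176 at 4 h, 6.79-fold lower (95% interval 6.12 to 7.56). Gpr34 and Gpr183 had log2 changes of -3.74 and -3.38, and stayed low at 4 h. On the wider list of receptors of resting macrophages 9 of 65 were lower and 5 higher (11 and 1 with equal library totals), and Cd300lb, an activating receptor of the CD300 family, measured 3276 at 0 h, 98.3 at 2 h and 146 at 4 h, 33.3-fold lower (95% interval 24.9 to 45.8).

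Arrestin-domain genes, ubiquitin ligases and nutrient sensors were lower in 9 of 25 and higher in 3. Arrdc3, an α-arrestin that sorts receptors, measured 848 at 0 h, 8.73 at 2 h and 22.3 at 4 h from 1318 reads at 0 h and 4 at 2 h, 97.1-fold lower (95% interval 37.8 to 357). Sesn1, a stress-induced inhibitor of mTORC1, measured 3404 at 0 h, 74.2 at 2 h and 53.3 at 4 h, 45.8-fold lower (95% interval 32.8 to 66.3), and Txnip, the thioredoxin-binding α-arrestin, 12999.7 at 0 h, 2223 at 2 h and 1661 at 4 h, 5.85-fold lower (95% interval 5.49 to 6.23). Fbxo32, a ubiquitin ligase subunit of muscle atrophy, measured 215 at 0 h, 4.37 at 2 h and 5.43 at 4 h, 49.2-fold lower (95% interval 13.5 to 408), with 2 reads at 2 h. The higher genes were Peli1, a ubiquitin ligase of Toll-like receptor signalling, with 401 at 0 h, 7245 at 2 h and 5679.7 at 4 h, together with Rnf19b and Ddit4.

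Macrophage transcription factors moved both ways, 6 of 43 higher and 6 lower, or 3 higher and 10 lower with equal library totals. Foxo3, a forkhead factor of stress and starvation, measured 2295 at 0 h, 199 at 2 h and 230.4 at 4 h, 11.5-fold lower (95% interval 9.38 to 14.4). Tsc22d3, the glucocorticoid-induced leucine zipper protein, measured 1256 at 0 h, 111 at 2 h and 59.2 at 4 h, 11.3-fold lower (95% interval 8.54 to 15.2). Irf2bp2 measured 4188 at 0 h, 415 at 2 h and 266 at 4 h, 10.1-fold lower (95% interval 8.74 to 11.7), and Hhex 342 at 0 h, 32.8 at 2 h and 18.5 at 4 h. On the higher side Spi1, the master factor PU.1 of myeloid cells, measured 2250.1 at 0 h, 10228 at 2 h and 10573 at 4 h, 4.55-fold higher (95% interval 4.35 to 4.75), and Tfec 479 at 0 h, 4199 at 2 h and 3277 at 4 h. Of 42 cell cycle genes 3 were lower and 1 higher, or 7 and 1 with equal library totals. E2f2 measured 436 at 0 h, 63.3 at 2 h and 19.019 at 4 h, 6.89-fold lower (95% interval 4.75 to 10.4), and Ccnd2, a D-type cyclin, measured 24.4 at 0 h, 1524 at 2 h and 2374 at 4 h, 62.4-fold higher (95% interval 44.975 to 88.9).

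Zinc finger genes named Zfp and DNA repair genes, both lists drawn up after the values were seen, held many of the low-count falls. Of 212 Zfp genes 56 were at least 4-fold lower and 4 higher, with a median log2 change of -1.17, and 179 of the 212 were below 0. With equal library totals 85 were lower and 2 higher. Zfp760 measured 115 at 0 h, 2.18 at 2 h and 19.6 at 4 h from 178 reads at 0 h and 1 at 2 h, 52.4-fold lower (95% interval 9.29 to 2083), and Zfp810 133 at 0 h, 4.37 at 2 h and 27.2 at 4 h. Of 83 DNA repair genes 17 were lower and none higher, or 27 and none with equal library totals. Palb2, the partner of BRCA2, measured 154 at 0 h, 6.55 at 2 h and 31.5 at 4 h from 239 reads at 0 h and 3 at 2 h, 23.5-fold lower (95% interval 7.93 to 115), and Polk, a bypass polymerase, 328 at 0 h, 32.8 at 2 h and 54.3 at 4 h, 10.016-fold lower (95% interval 6.02 to 18.028). In Zfp760, Zfp810 and Palb2 the 4 h value was several times the 2 h value. Other members of these lists went the other way. Zfp395 measured 8.73 at 2 h and 2.17 at 4 h, and Zfp36l2 and the DNA repair gene Dna2 were also lower at 4 h than at 2 h. How many of the lower genes on each list went each way was not counted. The falls of Zfp760, Zfp810 and Palb2 rest on few reads in the shallowest library, while Zfp36l2, also on the Zfp list, had 77 reads there. The part of that library's depth was not tested.

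Transcripts of the mitochondrial genome were lower at 2 h and back at 4 h. Of 9 compared, 7 were at least 4-fold lower. mt-Nd4 measured 659 at 0 h, 26.2 at 2 h and 741 at 4 h, 25.2-fold lower (95% interval 14.3 to 48.9), mt-Cytb 3023 at 0 h, 269 at 2 h and 3810.4 at 4 h, and mt-Co1 56744 at 0 h, 11774 at 2 h and 65632 at 4 h. The 4 h values were close to those of 0 h. Mitochondrial genes took 0.655%, 0.0803% and 0.427% of the reads of the libraries in order of time, which sets the 2 h library apart, and whether this comes from the cells or from the library cannot be told apart with 1 library. Groups of housekeeping genes moved little. None of 32 cytosolic ribosomal protein genes and none of 31 lysosomal genes passed 4-fold, with medians of 0.34 and 0.06 that become -0.32 and -0.60 with equal library totals. Lamp1, a membrane protein of the lysosome, measured 23826 at 0 h, 25106 at 2 h and 24156 at 4 h.

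At 4 h the higher genes split into 285 that were higher at 2 h than at 4 h and 427 that were higher at 4 h. They were chosen by their 2 h value, which these counts also use. For 90 of them the 4 h value was more than 2-fold below the 2 h value, for 153 it was more than 2-fold above it, and 7 were at or below their 0 h value. Of the higher genes on the lists of NF-κB inhibitors, immediate-early factors and brakes, 16 of 20, 17 of 22 and 11 of 14 were in the first class, and of interferon-stimulated genes and inflammatory enzymes 44 of 46 and 23 of 28 were in the second. Most genes of both classes were on none of these lists. Of the 439 lower genes 155 were lower still at 4 h, 157 were more than 2-fold above their 2 h value, and 6 were at or above 0 h.

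**Figure D3:**
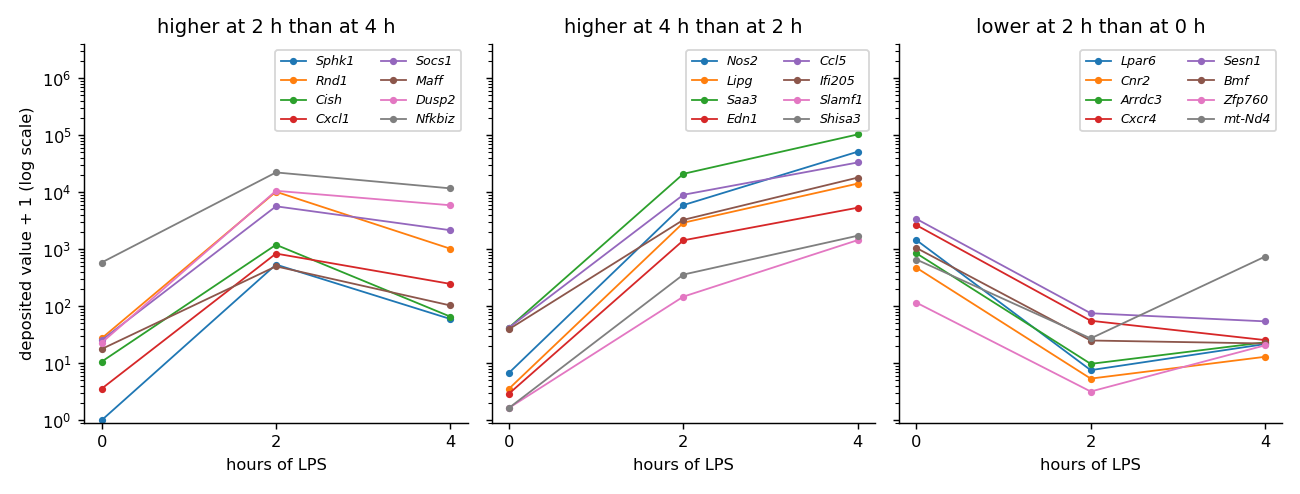
Deposited value plus 1 (y axis, log scale) at 0, 2 and 4 h of LPS (x axis) for genes higher at 2 h than at 4 h, higher at 4 h than at 2 h, and lower at 2 h than at 0 h, 1 library per point. Sphk1, Rnd1 and Cish drop furthest after 2 h in the first panel, Nos2 and Shisa3 keep climbing in the second, and mt-Nd4 returns to its 0 h level in the third.

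Defining macrophage markers were present throughout, with 2 of 11 identifiers (Itgam has 2) past 4-fold, Cd14 at 11.3-fold higher (95% interval 10.9 to 11.7) and Spi1, and Lyz2 at 242489 at 0 h, 224263 at 2 h and 209164 at 4 h. Only 1 of the 11 was past 4-fold with equal library totals. Csf1r, the receptor for M-CSF, measured 46545 at 0 h, 53749 at 2 h and 31846 at 4 h. Of the neutrophil markers 7 of 10 could be compared, 6 of them were above 0 and none passed 4-fold, with a median log2 change of 1.28, or 0.62 with equal library totals. Their summed value was 4761 at 0 h, 9988 at 2 h and 7054 at 4 h, which is 0.0475%, 0.0630% and 0.0397% of each library, while Ly6g, which defines neutrophils, had 4 reads at 0 h and 1 at 2 h. All 3 compared fibroblast markers were above 0, with a median log2 change of 0.60 that becomes -0.06 with equal library totals, and Col1a1 was 2.17-fold higher (95% interval 1.72 to 2.74). No dendritic cell and no mast cell or basophil marker reached the mean, and of the T and B cell markers Cd3e and Ms4a1 had no read in any library, while Cd4 measured 127 at 0 h, 247 at 2 h and 92.4 at 4 h and Cd79b 70.1 at 0 h, 45.9 at 2 h and 14.7 at 4 h. The megakaryocyte markers Pf4 and Itga2b were 2.60-fold higher (95% interval 2.41 to 2.81) and 2.70-fold higher (95% interval 1.68 to 4.31), from 1472 reads at 0 h and 1128 at 2 h for Pf4 and 44 reads at 0 h and 35 at 2 h for Itga2b. The part of other cell types in the results was not tested.

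As a measurement that the choice of genes did not use, the same genes were read in the AAV samples. The control there was AAV-GFP, which was not like the 0 h library in every gene. Saa3 stood at 10173 and 13566 TPM with AAV-GFP, against 64 of 15588502 reads at 0 h of LPS. Shisa3, with 1 read at 0 h, was also present there. AAV differences are therefore from this control and not from the 0 h state. Shisa3 itself measured 7.88 and 10.8 TPM with AAV-GFP against 12.3 and 17.8 TPM with AAV-Shisa3 (log2 difference 0.63, SE 0.218, limma adjusted p = 0.138), so the groups did not overlap but the difference did not pass. Over all 11218 genes tested with limma, 2.23% were higher and 4.10% lower in AAV-Shisa3 at an adjusted p under 0.05. Of the 712 genes higher after LPS 691 were found by symbol and 630 had a mean of at least 1 TPM, and 108 of them (17.1%) were higher and 11 lower in AAV-Shisa3. Of the 439 genes lower after LPS 421 were found and 359 tested, and 27 (7.52%) were lower and 2 higher. The median AAV-GFP level was 29.0 TPM over the 691 found and 4.25 TPM over the 421 found. The sets may therefore differ in how readily a gene is called, which was not tested. The median log2 difference was 0.18 for the first set, -0.27 for the second and -0.10 for all genes. Il1b measured 76.3 and 130.2 TPM with AAV-GFP against 255 and 388 TPM with AAV-Shisa3 (log2 difference 1.65, SE 0.293, limma adjusted p = 0.0361). Il27 measured 3.67 and 5.25 TPM with AAV-GFP against 12.030 and 12.7 TPM with AAV-Shisa3 (log2 difference 1.31, SE 0.173, limma adjusted p = 0.0231), and Acod1 1263 and 1248 TPM with AAV-GFP against 2014 and 1955 TPM with AAV-Shisa3 (log2 difference 0.66, SE 0.0669, limma adjusted p = 0.0174). These 3 were higher in both AAV-Shisa3 samples than in either AAV-GFP sample. Saa3 went the other way, with 10173 and 13566 TPM with AAV-GFP against 5724 and 7644 TPM with AAV-Shisa3 (log2 difference -0.83, SE 0.187, limma adjusted p = 0.0599), and did not pass. Nos2 measured 5.81 and 6.40 TPM with AAV-GFP against 9.94 and 6.85 TPM with AAV-Shisa3 and did not pass either (log2 difference 0.38, SE 0.189, limma adjusted p = 0.243). On the lower side Sesn1 measured 37.8 and 36.9 TPM with AAV-GFP against 23.6 and 26.000 TPM with AAV-Shisa3 (log2 difference -0.57, SE 0.0945, limma adjusted p = 0.0319).

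These AAV calls depended on the fit. Without limma's mean trend, or with no filter on low values, 0 genes of either set were called, although 206 and 228 of the genes higher after LPS, and 146 and 107 of those lower, had an unadjusted p under 0.05 in their direction. Over all genes these counts were 811 higher and 2148 lower of 11218 without the trend, and 1118 higher and 2411 lower of 20300 with no filter. Without either AAV-GFP sample 0 genes of the first set were called, without AAV-Shisa3 replicate 1 there were 4 and without replicate 2 there were 9. The second set had 0 calls each time. In these fits 1 group is a lone sample assumed to vary like the other group, with 1 residual degree of freedom, so a low count says little about stability. At an unadjusted p under 0.05 they held 169 to 217 higher genes of the first set beside 616 to 798 of all genes, and 71 to 93 lower genes of the second beside 1263 to 1712 of all. Centring on sample medians gave 150 calls in the first set and 12 in the second (3.34%), where 3.65% of all genes were called higher and 2.05% lower. Neutrophil markers moved with the same comparison: 8 of 10 were higher in both AAV-Shisa3 samples than in either AAV-GFP sample, with summed levels of 593 and 565 TPM in AAV-GFP and 1092 and 683 TPM in AAV-Shisa3, and their part in the result was not tested. Summed erythroid and megakaryocyte markers were also apart, at 681 and 807 TPM in AAV-GFP and 865 and 1113 TPM in AAV-Shisa3, with 2 of 8 markers above and 2 below in both samples. Summed macrophage markers overlapped between groups, at 35779 to 37935 and 36973 to 39449 TPM. The share of all genes with both AAV-Shisa3 samples above or below both AAV-GFP samples was not counted, so these marker counts have no background.

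**Figure D4:**
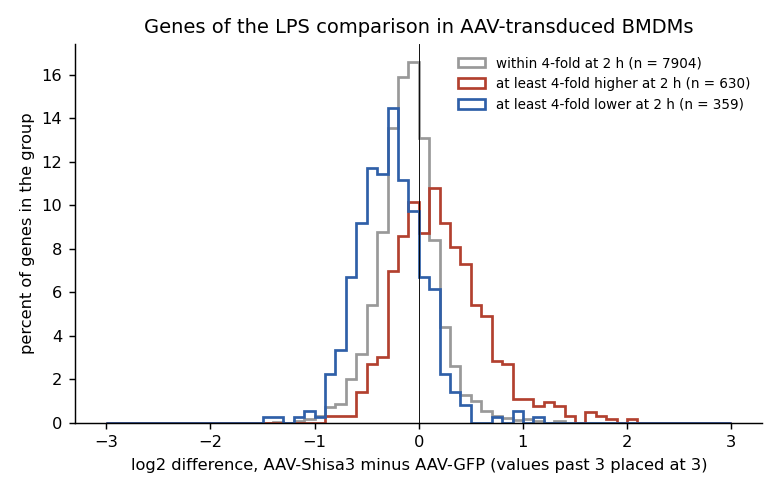
Share of genes (y axis, percent of each group) by log2 difference between AAV-Shisa3 and AAV-GFP (x axis, log2(TPM + 1), 2 samples each) for genes at least 4-fold higher (630, red), at least 4-fold lower (359, blue) and within 4-fold (7904, grey) after 2 h of LPS. The red curve lies to the right of the grey one and the blue curve to its left, with wide overlap.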

How the data were processed

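RNA of 7 BMDM samples was sequenced, and groups came from the labels. The LPS values that the authors deposited are a signal, found to be reads over a constant of each library (100% of values whole within 0.001 reads). The submitters' processing notes name the build mm9; the aligner and the tool behind the factors are not given in the sources used here. For the AAV experiment the deposited values were read as TPM, inferred from their sums, with unknown depth. Gene positions came from GENCODE M21 on GRCm38, which held 99.2% of the identifiers, and promoters from RefSeq on GRCm38.p6.

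Log2 changes used a pseudocount of 1 over the protein-coding genes whose mean reached 50, with exact 95% binomial intervals for ratios. Where a library had no read, the fold was set against 3 reads, which is not a lower limit. AAV genes were tested with limma 3.58.1 (trended, log2(TPM + 1), mean of at least 1, Benjamini-Hochberg threshold 0.05), in which p-values measure only the spread between these samples. Nothing says that samples came from separate cultures. Scaling used edgeR 4.0.16 in R 4.3.3, and Python 3.11.15 the rest. Scripts were tested on simulated data. Alternatives were other scalings, pseudocounts, filters and left-out samples. Members and lists were chosen with earlier results of these data known, and some lists after the values were seen. Named genes were the 12 largest changes each way, up to 5 of the largest per list, the highest values, those nearest 4-fold, and Shisa3. A few others (Tnf, Ifit1, Il16, Klf10, Per1, Rgs2, Csf1r, Lyz2) were named after their values were seen. A few named genes and 1 list are not reported here.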

Additional observations from a re-analysis of the deposited data

How the results depend on the processing

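The count of genes at least 4-fold higher at 2 h, 712 as reported, was 476 with equal library totals, 686 with TMM factors, and 1100 with no filter on low values. The count of lower genes, 439 as reported, was 985 with equal library totals, 1090 with no filter, 157 with a mean of at least 200 and 203 where the exact interval had to lie wholly past 4-fold. The remaining alternatives for both counts stayed within 1.5 times, and of 164 named genes past 4-fold, 158 stayed past it with equal library totals and 157 with a pseudocount of 5. In the AAV samples the 108 genes higher became 0 without the trend and 0 with no filter, and the 27 genes lower became 0 and 0, and 12 after centring on sample medians. Leaving out each sample gave 0 to 9 for the first and 0 for the second, in fits where 1 group is a lone sample assumed to vary like the other, so these counts say little about stability. With the replicate number as a block 150 (23.8%) of the first set were called higher and 49 (13.6%) of the second lower. Of all genes 3.78% were called higher and 7.59% lower in that fit. The labels do not say that a number marks a shared culture, and with 2 pairs (correlation of deviations 0.188) the block is no evidence of pairing. The causes were not tested. The depth of the 2 h library limits what can be said of low genes.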

Other observations

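Outside protein-coding genes, 597 genes had a mean of at least 50, of which 110 were at least 4-fold higher and 61 lower at 2 h. Mir155hg, the host transcript of miR-155, measured 4.50 at 0 h, 856 at 2 h and 1323 at 4 h. Of 44 small nucleolar RNA genes 17 were higher and 1 lower, and of 16 small nuclear RNA genes 7 were higher and none lower. All 17 and all 7 were lower at 4 h than at 2 h, as in Snora78 with 51.5 at 0 h, 889 at 2 h and 173 at 4 h. The 2 h library also stood apart in its mitochondrial reads, and in Rn7sk, Rpph1, Rmrp, Rn7s1 and Rn7s2, which took 4.52% of reads at 0 h, 6.19% at 2 h and 3.85% at 4 h. A difference of the cells and one of the library cannot be told apart. Cxcl11 and Mx2, annotated as polymorphic pseudogenes, measured 1.29 and 194 at 0 h and 511 and 12436 at 2 h. Cxcl11 had 2 reads at 0 h. These values have no replicate.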
